A study of Mus musculus with 6 samples.

Results

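The Fos and Jun genes encode the subunits of activator protein 1 (AP-1), and all 7 of them, Fos, Fosb, Fosl1, Fosl2, Jun, Junb and Jund, were taken by symbol from the 32285 genes counted in each library. Every one was detected. CD11b+ cells were isolated on magnetic beads from femur-derived and mandibular-derived bone marrow of C57Bl/6 mice aged 2 months, and 3 libraries per site were sequenced by droplet-based single-cell RNA-seq from the 3′ end of transcripts. Of the femur samples 1 was from a female and 2 were from males, and all 3 mandible samples were from males. The genotype was given as C57Bl/6 in all 6, and no treatment, deletion or transgene was named. The femur marrow was flushed from cut long bones, which the sample labels give as femurs and tibiae and the methods as femurs, and the mandibular marrow was flushed after extraction of the molars, tooth sockets included. How many mice made up a sample is not given in the sources used here, so p-values measure the spread between these samples. The comparison of interest was mandibular against femoral cells of the same cluster.

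AP-1 is a pair of bZIP proteins held together by a leucine zipper. Jun proteins pair with each other or with a Fos protein, whereas Fos proteins need a Jun partner to bind DNA. Fos, Fosb, Jun and Junb belong to the immediate early genes, which are transcribed within minutes of a growth factor, cytokine or stress signal through MAP kinases and serum response factor. Fosl1 and Fosl2 (also known as Fra-1 and Fra-2) lack the strong transactivation domain of Fos, Junb is a weaker activator than Jun that also opposes it, and Jund is expressed more constantly. In the myeloid lineage Fos is required for osteoclast formation, and Junb restrains expansion of the myeloid compartment.

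The authors' filter left 69776 of 74091 barcodes. The kept cells held between 82962160 and 244946998 UMIs per library, with medians of 6924 to 9158 UMIs per cell. Femur replicate 1 lost 18.5% of its barcodes to that filter and the other 5 libraries 1.88 to 5.14%, and femur replicate 3 was the largest with 22797 cells. Of 69276 distinct barcodes, 500 (0.722%) occurred in more than 1 library. The 9 clusters at resolution 0.1 were read through marker lists. Immature neutrophil genes (Ltf, Camp, Ngp and others) summed to 94809 counts per 1000000 UMIs of the library's cluster (CPM) in cluster 0 and 96504 CPM in cluster 4, and neutrophil precursor genes such as Elane and Mpo reached 2488 CPM in cluster 4. Mature neutrophil genes summed to 26476 CPM in cluster 1, 32528 CPM in cluster 2 and 37161 CPM in cluster 3, and to 17907 CPM in cluster 7, which also held immature neutrophil genes at 39829 CPM and whose median mitochondrial share was 5.84 to 7.74% per library. Monocyte and macrophage genes summed to 3085 CPM in cluster 5 and B cell genes to 9592 CPM in cluster 6, where immature neutrophil genes stood higher, at 22471 and 11493 CPM. The deposited reference labels called 24.2 to 49.7% of cluster 5 cells per library neutrophils. The corresponding sum of erythroid genes was 166905 CPM in cluster 8. This cluster held 274 cells and in 1 library 11. Itgam, which encodes CD11b, lay between 682 and 974 CPM over the libraries and averaged 198 CPM in cluster 6.

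Junb, Fos and Fosl2 shared 1 profile over the clusters: each was highest in the mature neutrophils of cluster 1 and lowest in the precursors of cluster 4. Junb averaged 3113 CPM in cluster 1 (SD 674, n = 6 libraries) and 193 CPM in cluster 4 (SD 54.2), a 16.2-fold span, which was the widest among the 7 genes. Fos, the founding member and partner of the Jun proteins, averaged 1878 CPM in cluster 1 (SD 498) and 157 CPM in cluster 4 (SD 40.6), a span of 11.96-fold. Fosl2 ran lower, at 255 CPM (SD 61.0) against 30.7 CPM (SD 2.23), a span of 8.31-fold. These levels describe the clusters without a test, because the clusters were made from the expression of the same cells. Neighbours in the order were often close. For Fosl2 the means of clusters 1, 2, 7 and 3 (255, 217, 166 and 162 CPM) each differed from the next by less than the larger SD of the pair. For Junb the mean of cluster 1 exceeded that of cluster 2 (2141 CPM) by more than the larger SD, although the ranges of the libraries overlapped.

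**Figure D1:**
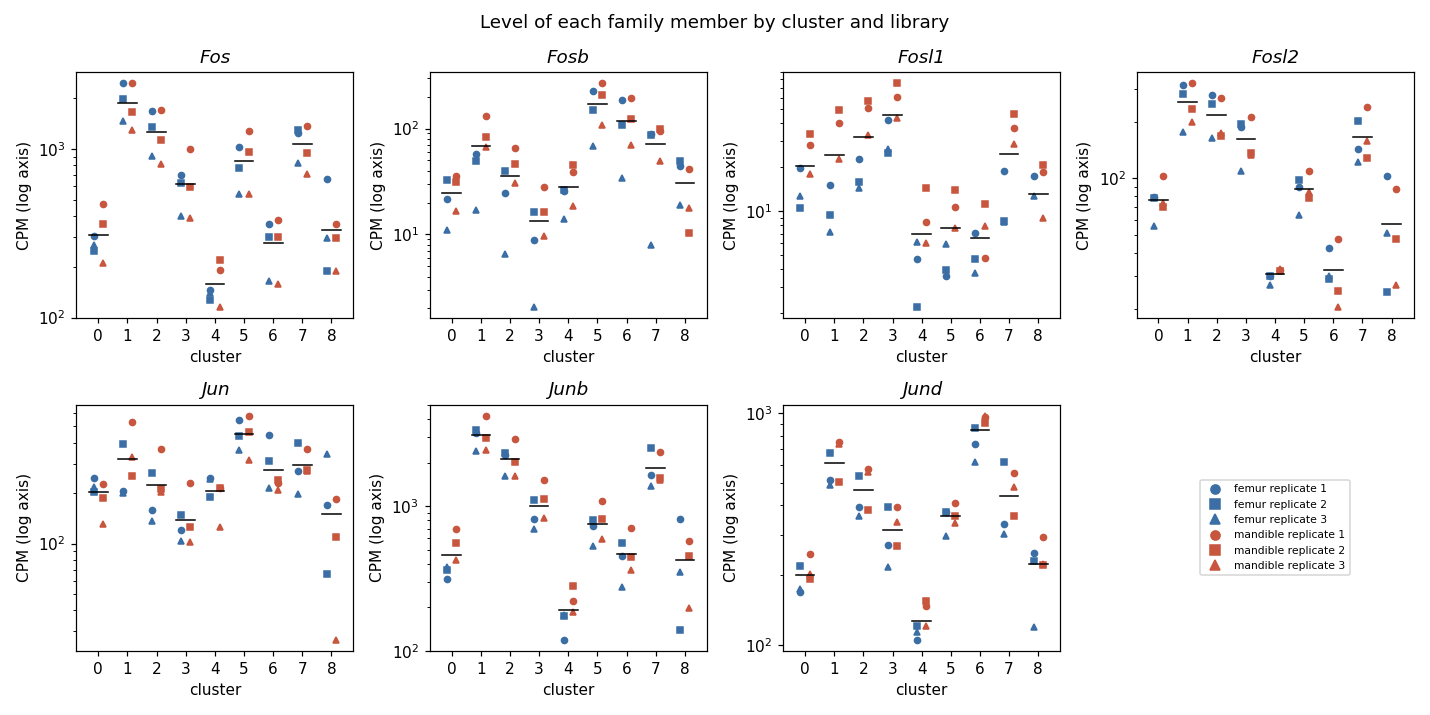
Level of each gene in CPM (log axis) in clusters 0 to 8, with 1 marker per library and a bar at the mean of the 6 libraries. Junb spans from 193 CPM in cluster 4 to 3113 CPM in cluster 1 and Jun from 138 to 448 CPM; Fosl1 of femur replicate 2 in cluster 8, with 0 UMIs, is not drawn.

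The promoters of these 3 genes are shown because their levels were highest and lowest in the same clusters, beside those of Fosb and Jun, which followed another. RefSeq windows on GRCm38.p6 run from 250 bases before to 50 bases after the start, are written on the strand of the gene, and were found for 6 of the 7 genes, all but Fosl1. Capitals mark TATAAA, searched on the strand of the gene, and TGACG, a partial site of the cyclic AMP response element searched on both strands. The Fos window (chr12:85473640-85473939, plus strand) held TATAAA at position -33 and TGACG at positions -129 and -66. The Junb window (chr8:84978699-84978998, minus strand) held TATAAA at position 1 and TGACG at position -106, with the RefSeq start 30 bases from that of the mm10 gene annotation. The Fosl2 window (chr5:32136222-32136521, plus strand, 671 bases from the annotated start) held neither. The Fosb window (chr7:19309996-19310295, minus strand) held TGACG at position -60, and the Jun window (chr4:95052173-95052472, minus strand) held neither.
Fos: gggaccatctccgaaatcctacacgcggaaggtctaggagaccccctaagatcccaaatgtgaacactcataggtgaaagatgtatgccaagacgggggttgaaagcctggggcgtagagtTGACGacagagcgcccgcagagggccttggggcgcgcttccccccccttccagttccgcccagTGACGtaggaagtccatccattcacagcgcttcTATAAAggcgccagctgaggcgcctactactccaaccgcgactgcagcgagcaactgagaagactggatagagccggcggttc
Junb: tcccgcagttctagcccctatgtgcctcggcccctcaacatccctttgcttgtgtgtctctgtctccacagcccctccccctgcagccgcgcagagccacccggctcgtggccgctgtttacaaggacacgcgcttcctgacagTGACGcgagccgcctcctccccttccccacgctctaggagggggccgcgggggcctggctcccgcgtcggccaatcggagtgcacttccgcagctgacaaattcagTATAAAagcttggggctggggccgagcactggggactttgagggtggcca
Fosl2: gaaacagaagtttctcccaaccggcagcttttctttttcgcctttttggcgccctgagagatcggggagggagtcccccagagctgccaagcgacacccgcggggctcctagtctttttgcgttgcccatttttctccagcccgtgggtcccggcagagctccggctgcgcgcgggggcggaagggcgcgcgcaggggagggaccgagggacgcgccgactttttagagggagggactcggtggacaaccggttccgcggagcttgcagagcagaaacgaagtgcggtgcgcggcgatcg
Fosb: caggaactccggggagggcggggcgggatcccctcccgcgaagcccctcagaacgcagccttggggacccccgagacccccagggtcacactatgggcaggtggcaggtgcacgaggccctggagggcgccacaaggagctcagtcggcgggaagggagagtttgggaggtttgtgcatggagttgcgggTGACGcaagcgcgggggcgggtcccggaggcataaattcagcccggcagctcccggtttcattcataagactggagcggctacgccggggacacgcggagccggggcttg
Jun: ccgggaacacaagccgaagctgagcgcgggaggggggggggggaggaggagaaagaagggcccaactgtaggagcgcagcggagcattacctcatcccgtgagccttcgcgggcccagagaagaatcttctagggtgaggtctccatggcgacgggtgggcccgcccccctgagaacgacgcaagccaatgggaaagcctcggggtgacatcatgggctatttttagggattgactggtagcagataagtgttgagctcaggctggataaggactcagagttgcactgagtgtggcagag
Among 32544 promoter windows of that length, TATAAA was found in 8.28% and TGACG in 20.9%. The full AP-1 element TGANTCA was present in 7.79% of those windows, the element TGACGTCA, which contains TGACG, in 1.80% and the serum response CArG box in 1.64%. The 6 windows of the family held none of these 3, which says only that the letters are absent from these 300 bases.

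Jun and Fosb were highest in cluster 5, the cluster with the monocyte and macrophage markers, and lowest in cluster 3. Jun, the strongest activator among the Jun proteins, averaged 448 CPM in cluster 5 (SD 101) and 138 CPM in cluster 3 (SD 48.0), a 3.25-fold span and the narrowest of the 7. Fosb averaged 172 CPM in cluster 5 (SD 75.9), 119 CPM in cluster 6 (SD 63.1) and 13.5 CPM in cluster 3 (SD 8.78), a span of 12.8-fold. The first and second of these did not differ beyond their spread. Jund was highest in the B lineage cells of cluster 6 at 843 CPM (SD 140) and lowest in cluster 4 at 128 CPM (SD 19.4). Fosl1 (chr19:5447547-5455946, plus strand, 4 exons, mm10) was the scarcest member over all cells, though not in cluster 3, and had yet another order, with 45.5 CPM in cluster 3 (SD 19.7), 32.3 CPM in cluster 2 (SD 18.1) and 20.5 CPM in cluster 0 (SD 9.03), down to 6.57 CPM in cluster 6 (SD 2.78). No neighbours in the Fosl1 order differed beyond their spread. In the annotation 4 members overlap a gene on the other strand. Counting by strand keeps reads of such pairs apart, but the sources used here do not say whether it was used. Junos, annotated antisense to Jun over 689 bases, had 28.9 UMIs per 100 Jun UMIs in cluster 4 and 15.9 in cluster 0, but 2.60 in cluster 3 and 3.90 in cluster 5. The partners of Fosl1, Junb and Jund overlap them by 2767 bases (Ccdc85b), 351 bases (Prdx2) and 919 bases (Gm11175). Ccdc85b averaged 1.40 CPM in cluster 1 and 24.2 CPM in cluster 5, above the 7.61 CPM of Fosl1 there.

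The make-up of the family was not the same in all clusters. The 7 genes together held 6267 CPM in cluster 1 and 749 CPM in cluster 4. Junb made up 49.7% of these UMIs in cluster 1 (SD 1.61), 48.99% in cluster 2 (SD 1.57), 47.1% in cluster 7 (SD 1.96) and 43.9% in cluster 3 (SD 3.24). In the precursors of cluster 4 no member held as much, and Jun (27.7%, SD 6.26) and Junb (25.6%, SD 4.55) were the largest. Fos led in cluster 5 with 31.1% (SD 2.99), where Fosb reached its largest share of 6.14% (SD 1.48), and Jund led in cluster 6 with 42.5% (SD 7.27). These are shares of molecules counted at the 3′ end, which are not divided by transcript length. In cluster 4, Jun made up 32.8% of the family at the femur (SD 4.18, n = 3) and 22.7% at the mandible (SD 2.17, n = 3), and in cluster 0 it made up 19.5% (SD 1.88) and 12.6% (SD 0.405). Its own level in CPM was not called different between sites in either cluster. Junos was at 57.5 to 76.9 CPM at the femur and 45.3 to 52.6 CPM at the mandible in cluster 4. In cluster 0 it was at 31.0 to 46.3 CPM and 22.9 to 27.3 CPM. The sites did not overlap in CPM for 16% of all genes in cluster 4 and 11.1% in cluster 0. The shares of Jun in the family were not tested between sites, nor was the part of Junos in them.

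**Figure D2:**
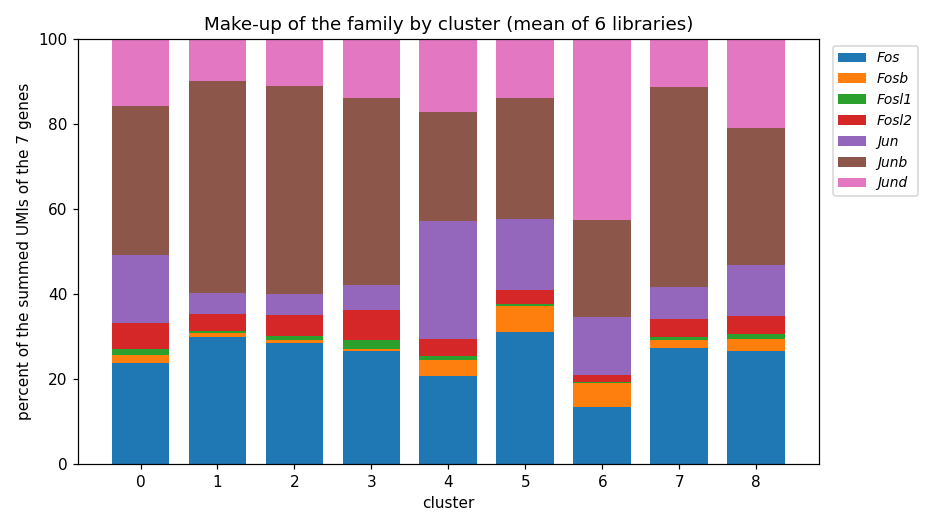
Percent of the summed UMIs of the 7 genes held by each gene in clusters 0 to 8, as stacked bars of the mean over 6 libraries. Junb fills 43.9 to 49.7% of the bar in clusters 1, 2, 3 and 7, while Jun is largest in cluster 4 (27.7%), Fos in cluster 5 (31.1%) and Jund in cluster 6 (42.5%).

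Over the 9 cluster means of log2(CPM + 1), Pearson's r was 0.97 between Fos and Junb, 0.94 between Fosl2 and Junb, 0.93 between Fos and Fosl2 and 0.86 between Fosb and Jun, whereas it was -0.59 between Fosb and Fosl1. The points share libraries and depth, so these values are a description. Among genes with a mean of at least 10 CPM, those most like Fos were Gm5150 (r = 0.995), Sirpb1b and Pla2g7, the last encoding a secreted phospholipase. Dhx40 (r = 0.995), Kctd12 and Xylt1 were most like Junb, and A130014A01Rik (r = 0.996), Skap2 and Cd44, the hyaluronan receptor, most like Fosl2. For Fosl1 they were E230014E18Rik (r = 0.987), 4933408B17Rik and Nt5e, the ecto-5′-nucleotidase CD73. Jund had Ubr1 (r = 0.993), Ythdc1 and Pum2, an RNA-binding repressor. The best matches were weaker for Jun (3110082I17Rik, r = 0.958, then Gm20732 and Sipa1l3) and for Fosb (Rbm7, r = 0.9504, then Tent4b and 8030462N17Rik).

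Between the sites, Fosl1 had a higher mean in mandibular than in femoral cells in all 9 clusters and the largest fitted difference of the 7 genes, yet no member passed the adjusted threshold. The test was edgeR's quasi-likelihood test on UMIs summed per library and cluster, with Benjamini-Hochberg adjustment over all genes of the cluster at a false discovery rate of 0.05. Of 63 pairs of a gene and a cluster, 59 passed the filter on low counts and 0 were called, 14 had an unadjusted p under 0.05 and in 10 the 3 femur and 3 mandible libraries did not overlap. DESeq2 called 2 of the pairs, Fosl1 in clusters 1 and 2, and Fosl1 over all cells, where it called 2.88, 1.47 and 1.68% of all genes. In the other clusters it called between 0 and 1.24% of genes. edgeR called few genes at all: of all genes tested, 0.0163% in cluster 0, 0.0842% in cluster 1, 0.0416% in cluster 2, 0.0108% in cluster 3, 0.0245% in cluster 4, 0% in clusters 5, 6 and 8, 0.0842% in cluster 7 and 0% over all cells. The share of all genes with an unadjusted p under 0.05 was 6.81, 13.6, 12.2, 4.38, 13, 7.11, 4.04, 5.32 and 1.1% in clusters 0 to 8 in that order and 9.37% over all cells. The libraries of the sites did not overlap for 11.1, 21.8, 14.9, 7.71, 16, 11.6, 9.24, 10.7 and 4.6% of genes in the same order and for 10.1% over all cells. The fitted difference was above 0 in 48 of the 59 pairs. These pairs are 7 genes read in the same 6 libraries, so they are not independent. The share of all genes above 0 was not counted, and their median log2 fold change lay between -0.01 and 0.02 in every cluster. An alternative fit used the 4 libraries that share library number 6 or 7, with that number as a block and 1 residual degree of freedom. It called members in clusters 0 to 4, 6 and 7, and it called 4.6, 14.1, 12.4, 5.28, 3.67, 0.0361, 1.03, 1.36 and 0.0396% of all genes in clusters 0 to 8 in that order and 0.108% over all cells.

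**Figure D3:**
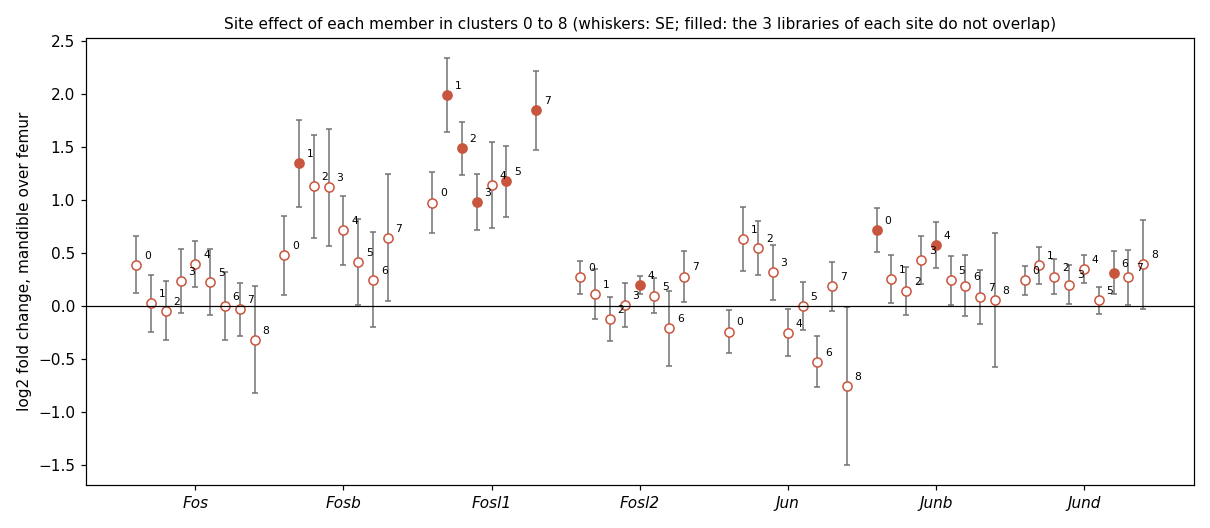
Log2 fold change of mandible over femur for each gene, with 1 point per cluster (number beside it) and whiskers of 1 SE; filled points mark the 10 pairs whose 3 femur and 3 mandible libraries do not overlap. The 7 Fosl1 points lie between 0.97 and 1.99, and the Fos points between -0.32 and 0.39.

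The fitted Fosl1 differences were largest in clusters 1, 7 and 2. In cluster 1 the femur libraries held 15.2, 9.39 and 7.20 CPM and the mandible libraries 40.2, 49.6 and 22.8 CPM (replicates 1 to 3), a log2 fold change of 1.99 ± 0.35 (SE; unadjusted p = 0.00026, adjusted p = 0.0779). In cluster 2 they held 22.8, 15.8 and 14.3 CPM against 51.0, 56.8 and 33.4 CPM, a log2 fold change of 1.48 ± 0.25 (unadjusted p = 0.000203, adjusted p = 0.0804). Every mandible library lay above every femur library in both clusters, and DESeq2 called both (adjusted p = 4.02e-06 and 1.55e-05). In cluster 7, with the high mitochondrial share, values were 18.7, 8.48 and 8.42 CPM against 37.1, 46.4 and 29.0 CPM, a log2 fold change of 1.84 ± 0.37 (unadjusted p = 0.000415, adjusted p = 0.204). The adjusted p in that cluster was 0.0319 without femur replicate 1, which was the single female sample. Cluster 3, where Fosl1 was highest, had 42.0, 24.8 and 26.5 CPM against 60.9, 75.4 and 43.7 CPM (log2 fold change 0.98 ± 0.26, unadjusted p = 0.00396, adjusted p = 0.604). Here the groups were close to touching, with 42.0 CPM at the femur and 43.7 CPM at the mandible. In cluster 5 the level was low, at 3.60, 3.91 and 5.96 CPM against 10.7, 13.8 and 7.69 CPM (log2 fold change 1.17 ± 0.34, unadjusted p = 0.00829, adjusted p = 0.606). Markers of other cells were also apart by site in cluster 5, with B cell genes at 21.2 to 33.1 CPM and 36.1 to 73.9 CPM, megakaryocyte and platelet genes at 11.6 to 34.3 CPM and 36.5 to 59.9 CPM and tooth genes at 0.0994 to 0.550 CPM and 16.4 to 1318 CPM. In cluster 3 the tooth genes were at 0 to 0.0973 CPM and 12.8 to 28.4 CPM and the megakaryocyte and platelet genes at 1.85 to 3.53 CPM and 4.17 to 9.35 CPM. The part of these markers was not tested. The groups overlapped in clusters 0 (log2 fold change 0.97 ± 0.29, unadjusted p = 0.00895, adjusted p = 0.527) and 4 (1.14 ± 0.40, unadjusted p = 0.019, adjusted p = 0.315), and the value in cluster 4 was 0.69 without mandible replicate 2. Fosl1 did not pass the filter in clusters 6 and 8, where its femur means were 5.17 and 9.99 CPM and its mandible means 7.97 and 15.98 CPM. Over all cells it held 16.4, 9.48 and 10.7 CPM against 30.2, 31.2 and 16.8 CPM (log2 fold change 1.07 ± 0.29, unadjusted p = 0.00614, adjusted p = 0.389), a sum that also moves with the mix of clusters. Over all alternative settings the adjusted p of Fosl1 ran from 8.84e-55 (library number as a block, 4 libraries) to 0.337 in cluster 1, from 1.15e-12 (no filter on low counts) to 0.315 in cluster 2 and from 0.000479 (no filter) to 0.635 in cluster 7, and the difference was above 0 in each. That block called Fosl1 in clusters 0 to 4 and 7 and over all cells.

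**Figure D4:**
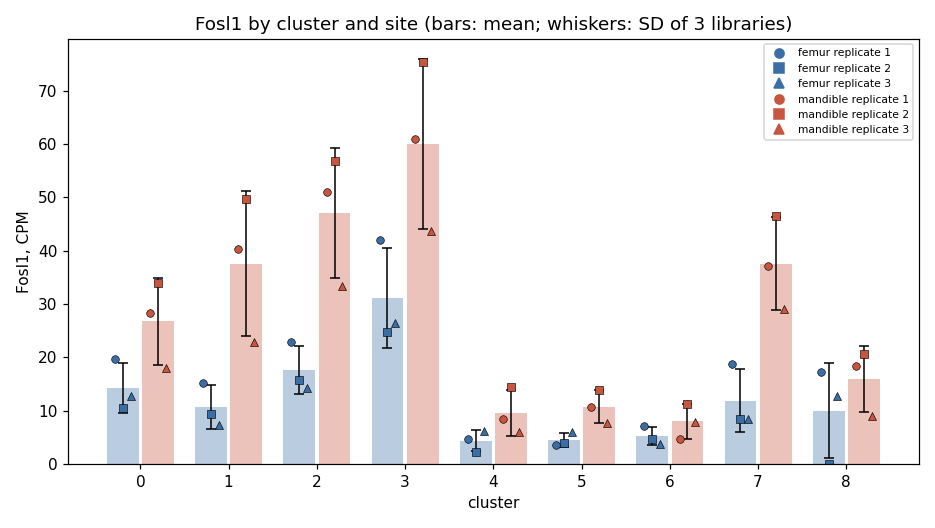
Fosl1 in CPM in clusters 0 to 8 at each site. Bars are means of 3 libraries, whiskers the SD and points the libraries; the femur and mandible points are apart in clusters 1, 2, 3, 5 and 7.

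The share of cells with a Fosl1 UMI was apart between sites in clusters 1, 2, 4, 5 and 7 as counted and overlapped in clusters 0, 3, 6 and 8, and none of these differences passed an exact permutation test, which cannot go below 0.1 with 3 against 3 libraries. Such shares as counted did not overlap for 13.3, 16.2, 13.7, 6.48, 9.1, 11.4, 17.8, 5.54 and 4.95% of all genes in clusters 0 to 8 in that order. In cluster 1, 4.58% ± 2.34 of femoral cells and 14.7% ± 5.00 of mandibular cells (SD, n = 3 libraries) had at least 1 Fosl1 UMI, while a cell with any had 1.23 to 1.40 UMIs per library at the femur and 1.28 to 1.46 at the mandible. With cells thinned to 1000 UMIs the shares were 0.623% ± 0.212 and 3.18% ± 0.993, and the sites overlapped in clusters 0, 5, 6, 7 and 8. Free RNA gives UMIs in cells that do not express a gene. The B lineage cells of cluster 6 had the lowest share before thinning, at 2.25% ± 0.509 and 3.09% ± 1.33, with median depths of 5042 to 5541 UMIs at the femur and 3104 to 4629 at the mandible against 3827 to 6154 and 4192 to 5121 in cluster 1. Within cluster 5 the cells that the deposited reference labels called neutrophils held 7.79 to 8.92 CPM of Fosl1 in the femur libraries and 13.6 to 26.7 CPM in the mandible libraries. Cells labelled monocytes held 1.02 to 1.14 CPM and 1.30 to 3.22 CPM, again without overlap but at a far lower level, and in cells labelled macrophages the sites overlapped at 0 to 0.812 CPM and 0 to 8.61 CPM.

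Several measures moved with site in the same clusters. The median mitochondrial share per library in cluster 1 was 0.196 to 0.266% at the femur and 0.295 to 0.365% at the mandible, and in cluster 2 it was 0.193 to 0.238% and 0.292 to 0.359%. Among cells at or below the median mitochondrial share of their library and cluster, the Fosl1 log2 fold change was 2.17 in cluster 1 (adjusted p = 0.0825) and 1.66 in cluster 2 (adjusted p = 0.0465). In that subset 0.0547% of all genes were called in cluster 1 and 0.348% in cluster 2. Because the median was taken within each library, the cut-off stayed higher at the mandible. The subset therefore does not remove the site difference in mitochondrial share. Tooth genes (Amelx, Ambn, Enam and others, 6 of 6 listed in the files) summed to 0 to 0.0569 CPM in the femur libraries of cluster 1 and 13.1 to 49.2 CPM in the mandible libraries, and to 0 to 0.148 CPM and 15.7 to 70.9 CPM in cluster 2, where Dspp was at 0. Immature neutrophil genes summed to 3083 to 6783 CPM and 7157 to 15953 CPM in cluster 1 and to 6575 to 12492 CPM and 14658 to 22319.9 CPM in cluster 2. Mature neutrophil genes in cluster 1 summed to 23386 to 24658 CPM and 27516 to 29543 CPM, although only 3 of the 6 had a log2 fold change above 0. Monocyte and macrophage genes summed to 425 to 541 CPM and 589 to 696 CPM in cluster 1 and to 596 to 744 CPM and 798 to 884 CPM in cluster 2. These higher sums did not hold gene by gene. Of the 7 genes 4 had a log2 fold change above 0 in cluster 1 and 3 in cluster 2, where the median was -0.38. T and NK cell genes were at 7.55 to 11.3 CPM and 13.7 to 16.5 CPM in cluster 1 and at 10.4 to 13.4 CPM and 15.8 to 17.2 CPM in cluster 2. Of the 7 genes on that list only 1 passed the filter in either cluster. Cd8a and Cd3e were at 0 in cluster 1, and Cd8a, Klrb1c, Cd3e and Trac in cluster 2. The list averaged 105 CPM in the precursors of cluster 4, so its sum does not mark T or NK cells here. Megakaryocyte and platelet genes were at 1.62 to 2.95 CPM and 6.39 to 14.4 CPM in cluster 2. The part of these lists in the Fosl1 values was not tested. The stromal and bone list overlapped between sites in cluster 1, at 11.5 to 16.2 CPM and 13.4 to 17.0 CPM, although 1 of its genes passed the false discovery rate as higher there and 1 in cluster 2. In cluster 7 that list was apart, at 9.34 to 77.8 CPM and 231 to 726 CPM with 3 genes called higher, and the tooth genes summed to 0 CPM and 204 to 555 CPM. Megakaryocyte and platelet genes were at 3.50 to 5.89 CPM and 10.5 to 80.1 CPM there, with 0 of them passing the filter. The median mitochondrial share of cluster 7 was 5.84 to 7.42% per library at the femur and 7.62 to 7.74% at the mandible. The part of these lists and of the mitochondrial share in the Fosl1 value of cluster 7 was not tested. Ccdc85b, which overlaps Fosl1 on the other strand, had log2 fold changes of -0.18 in cluster 1, 0.46 in cluster 2, 1.04 in cluster 4 (unadjusted p = 0.0021, adjusted p = 0.232) and 0.68 over all cells (unadjusted p = 0.0323, adjusted p = 0.481). In cluster 4 its means were 1.60 and 3.19 CPM beside 4.32 and 9.61 CPM of Fosl1.

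Fosb, the member closest to Fos in structure, was higher at the mandible on average in the 8 clusters where it was tested, and lower in cluster 8, which was not tested (37.6 CPM at the femur and 23.2 CPM at the mandible). In cluster 1 it held 58.1, 49.5 and 16.9 CPM in the femur libraries and 132, 83.1 and 67.1 CPM in the mandible libraries (log2 fold change 1.34 ± 0.41, unadjusted p = 0.00898, adjusted p = 0.204). The groups did not overlap, and femur replicate 3 lay far below the others. That library was the lowest of the 6 in each of clusters 0 to 7. Over all cells it held 16.3 CPM, against 40.8 to 82.3 CPM in the other libraries. The higher mandible means of the tested clusters therefore share this low femur library. In cluster 2 values were 24.6, 39.4 and 6.49 CPM against 65.1, 46.2 and 30.6 CPM with overlap (log2 fold change 1.13 ± 0.48, unadjusted p = 0.0438, adjusted p = 0.386), and the largest remaining difference was in cluster 3 (1.12 ± 0.55, unadjusted p = 0.0719, adjusted p = 0.999). Leaving out 1 library at a time moved the log2 fold change in cluster 2 between 0.68 and 1.68 and in cluster 3 between 0.65 and 1.80, both lowest without femur replicate 3. Blocked on the library number (4 libraries, 1 residual degree of freedom), edgeR called Fosb in clusters 0 to 4 and 6, where 1.03 to 14.1% of all genes were called.

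Junb was named by the study for clusters 0, 4 and 5 on these samples and so is not independent evidence there. For separately isolated mandibular monocytes the study also reports an upward trend by RT-qPCR and more open chromatin at Junb. It reports a trend in human CD11b+ cells as well, and none of these data were used here. The Junb values of the sites did not overlap in the immature cells of clusters 0 and 4 and overlapped in cluster 5. In cluster 0 the femur libraries held 312, 364 and 381 CPM and the mandible libraries 696, 560 and 427 CPM (log2 fold change 0.71 ± 0.21, unadjusted p = 0.00816, adjusted p = 0.527). In cluster 4 they held 119, 173 and 177 CPM against 220, 281 and 185 CPM (log2 fold change 0.57 ± 0.21, unadjusted p = 0.0246, adjusted p = 0.324). Mandible replicate 3 was the mandible library closest to the femur in both. In cluster 5 values were 729, 807 and 535 CPM against 1087, 811 and 592 CPM with overlap (log2 fold change 0.24 ± 0.23, adjusted p = 0.839). Among the 482 macrophage-labelled cells of that cluster Junb was apart, at 236 to 329 CPM and 343 to 714 CPM, as were Fosb (79.5 to 239 CPM and 253 to 314 CPM) and Jund (205 to 227 CPM and 394 to 508 CPM), and among monocyte- and neutrophil-labelled cells these genes overlapped. Of all genes tested in cluster 5, the sites did not overlap for 11% in macrophage-labelled, 16.9% in monocyte-labelled and 8.87% in neutrophil-labelled cells. Other measures also differed by site in clusters 0 and 4, and those given here are examples. Median UMIs per cell in cluster 0 were 11376 to 13213 at the femur and at most 11354 at the mandible, and erythroid genes summed to 18.6 to 26.9 CPM and 50.3 to 216 CPM there. In cluster 4 the neutrophil precursor genes summed to 1494 to 2047 CPM and 2177 to 3718 CPM. Of these 4 of 5 were higher at an unadjusted p under 0.05, against 13% of all genes in either direction. Monocyte and macrophage genes ran the other way in cluster 4, at 802 to 827 CPM and 751 to 782 CPM. Of the 7 genes on that list 3 had a log2 fold change above 0. The part of these measures in the Junb, Jund and Fosl2 values of the same clusters was not tested. In the mature neutrophils of cluster 1, where Junb was most abundant, the libraries interleaved at 3206, 3376 and 2407 CPM against 4233, 2995 and 2459.8 CPM, a log2 fold change of 0.25 ± 0.23. Between libraries sharing library number 6 or 7, Junb there was higher at the mandible, with log2 ratios of 0.33 and 0.32. With that number as a block in the 4 libraries edgeR called Junb in clusters 0, 1, 3 and 4 (adjusted p = 0.00345 in cluster 0, 0.0279 in cluster 3 and 0.000147 in cluster 4). That block leaves out mandible replicate 3, the mandible library with the least Junb in each of these clusters. The largest remaining Junb difference was 0.43 ± 0.23 in cluster 3 (unadjusted p = 0.0902, adjusted p = 0.999), which was 0.22 without mandible replicate 1 and 0.65 without mandible replicate 3. In cluster 4 the value was 0.37 without mandible replicate 2. Prdx2, which overlaps Junb on the other strand, had a log2 fold change of 0.08 in cluster 0 and 0.61 in cluster 4, at 6.91 and 17.5 CPM.

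Fosl2, Jund, Jun and Fos gave 2 pairs without overlap between them. Fosl2 in cluster 4 held 30.1, 30.0 and 26.8 CPM at the femur and 32.5, 31.9 and 32.8 CPM at the mandible, without overlap (log2 fold change 0.19 ± 0.08, unadjusted p = 0.0438, adjusted p = 0.369). Its largest remaining difference was 0.28 ± 0.24 in cluster 7 (unadjusted p = 0.275, adjusted p = 1.00). Jund was fitted above 0 in all 9 clusters, from 0.05 to 0.39. In cluster 6, where it was most abundant, values were 738, 866 and 615 CPM against 961, 905 and 973 CPM without overlap (log2 fold change 0.31 ± 0.20, unadjusted p = 0.143, adjusted p = 1.00). Depth also differed by site there, with median UMIs per cell of 5042 to 5541 at the femur and 3104 to 4629 at the mandible, and within libraries the deeper cells held less Jund (653 against 1438 CPM, lower in 6 of 6). The share of cluster 6 cells with a Jund UMI was lower at the mandible as counted (98.8% ± 1.04 and 95.6% ± 0.884) and overlapped after thinning. Tooth genes (0 to 0.938 CPM and 5.37 to 62.2 CPM) and megakaryocyte and platelet genes (0 to 0.938 CPM and 4.74 to 8.30 CPM) were also apart in cluster 6. Of either list 0 genes passed the filter there. The part of depth and of these lists in the Jund value was not tested. In cluster 4 the log2 fold change was 0.34 ± 0.13 with overlap (unadjusted p = 0.0281, adjusted p = 0.333, and adjusted p = 0.0083 with the library number as a block). The largest remaining Jund difference was 0.39 ± 0.42 in cluster 8 (unadjusted p = 0.371, adjusted p = 1.00), which fell to 0.17 without femur replicate 3 and 0.14 without mandible replicate 1. Jun ran the other way in the B lineage cluster, with 445, 309 and 213 CPM at the femur and 231, 239 and 207 CPM at the mandible (log2 fold change -0.53 ± 0.24, unadjusted p = 0.0469, adjusted p = 1.00). These groups overlapped, and femur replicate 1 was the highest. Without 1 library at a time that difference lay between -0.72 and -0.28. The largest remaining Jun difference was -0.76 ± 0.74 in the small cluster 8 (unadjusted p = 0.334, adjusted p = 1.00). In CPM, the Fos libraries of the sites overlapped in every cluster. Its largest difference was 0.39 ± 0.22 in cluster 4 (unadjusted p = 0.107, adjusted p = 0.478), which was 0.17 without mandible replicate 2 and 0.65 without mandible replicate 3, and in cluster 1 it held 2447, 1966 and 1455 CPM at the femur and 2454, 1663 and 1285 CPM at the mandible. Between libraries that share a library number, Fos was higher at the mandible for both numbers in clusters 0 to 7, with log2 ratios of 0.60 and 0.65 in cluster 4 and 0.71 and 0.81 in cluster 5. With that number as a block in these 4 libraries, edgeR called Fos in clusters 0, 1, 3 and 4 (log2 fold change 0.65 and adjusted p = 1.7e-06 in cluster 4). These ratios and this block leave out femur replicate 1 and mandible replicate 3. Mandible replicate 3 was the lowest Fos library of the 6 in each of clusters 0 to 7, with 116 CPM in cluster 4 and 541 CPM in cluster 5. The part of leaving it out was not tested. The same block called Jun in clusters 1, 2 and 3 and Fosl2 in clusters 0 and 1, each higher at the mandible for both numbers. The labels do not say what the number marks, and over the other settings the adjusted p in cluster 4 ran from 0.210 to 0.873.

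Shares of cells with a UMI, after thinning to 1000 UMIs per cell, were compared by a 2-sided exact permutation test over the 20 assignments of the 6 libraries, whose smallest p is 0.1. The sites did not overlap in 7 of the 63 pairs, which were Fosl1 in clusters 1, 2, 3 and 4, Fosb in cluster 1, Junb in cluster 0 and Jund in cluster 4, and the lowest adjusted p over the 63 pairs was 0.787. With cells thinned to 2000 UMIs, 8 pairs did not overlap, against 10.8, 18.7, 14.4, 8.55, 12.3, 11.6, 11.2, 9.78 and 7.47% of all genes in clusters 0 to 8. Of the 7, Fosl1 in clusters 1 and 2, Fosb in cluster 1 and Junb in cluster 0 were among them, while Fosl1 in clusters 3 and 4 and Jund in cluster 4 overlapped. Over all genes tested the same held for 11.2, 17.1, 13.1, 8.71, 11.9, 11.6, 11.4, 9.73 and 6.96% in clusters 0 to 8 in that order. Fosl1 rested on 1.49% ± 0.662 of femoral and 4.47% ± 1.14 of mandibular cells in cluster 2, and on 2.58% ± 0.689 and 5.69% ± 0.249 in cluster 3. For Junb in cluster 0 the shares were 24.0% ± 1.82 and 32.9% ± 5.32. At the other end, 87.8% ± 4.20 and 90.5% ± 4.36 of cluster 1 cells held a Junb UMI and 77.0% ± 6.82 and 76.1% ± 9.10 a Fos UMI even at this depth. Jund in cluster 4 was found in 10.4% ± 0.241 and 12.3% ± 0.811.

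Whether the site difference of a member itself differed between clusters was tested with limma on the difference in log2 CPM between clusters within each library. None of the 7 passed for cluster 5 minus cluster 0 or for cluster 1 minus cluster 4 at a false discovery rate of 0.05, as did 0% of all genes in both, and none had an unadjusted p under 0.05, against 10.3% and 11.2% of all genes. The lowest was Fosb, whose mandible over femur difference was 0.81 ± 0.35 log2 units larger in cluster 1 than in cluster 4 (unadjusted p = 0.055, adjusted p = 0.459). Without 1 library this Fosb value lay between 0.53 (femur replicate 3) and 1.11 (mandible replicate 2). Jun gave 0.91 ± 0.45 for the same clusters (unadjusted p = 0.0825, adjusted p = 0.500), with an unadjusted p of 0.0171 without femur replicate 2 and 0.0239 without mandible replicate 2. Junb gave -0.49 ± 0.22 for cluster 5 minus cluster 0 (SE, unadjusted p = 0.0657, adjusted p = 0.509), and without 1 library between -0.71 and -0.35. Without femur replicate 3 the unadjusted p was 0.00177 for Junb and 0.02 for Fos in that comparison (adjusted p = 0.452 and 0.495). For Fosl1, cluster 1 minus cluster 4 gave 0.75 ± 0.46 (unadjusted p = 0.151, adjusted p = 0.590), which was 0.19 without femur replicate 3 and 1.06 without femur replicate 2.

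Within clusters, several members fell in cells called G2M, the phase of preparation for and passage through mitosis, relative to G1 cells of the same library. The phase calls are those of the deposited cell table, and the cell cycle gene lists in common use for such calls hold no member. In cluster 5, Junb averaged 866 CPM in G1 cells (SD 218, n = 6) and 394 CPM in G2M cells (SD 134), and fell in G2M by 1.15 ± 0.11 on the log2 scale (edgeR quasi-likelihood test with the library as a block, adjusted p = 5.84e-06). Jund, Fos, Fosl2 and Fosl1 also fell, by 0.61 ± 0.07 (adjusted p = 1.94e-05), 0.39 ± 0.10 (adjusted p = 0.00697), 0.26 ± 0.08 (adjusted p = 0.0197) and 1.16 ± 0.36 (adjusted p = 0.0168). Junb, Jund and Fos were lower in 6 of 6 libraries, and Fosl2 and Fosl1 in 5 of 6. Fosb (-0.24 ± 0.11, adjusted p = 0.0956) and Jun (0.02 ± 0.07, adjusted p = 0.769) did not pass. So 5 of 7 members were lower and 0 higher, where 28.4% of all genes tested were lower and 27.7% higher. Fos, Junb and Jund were called whichever library was left out. Fosl2 was not called without femur replicate 1 or 2 or mandible replicate 2 or 3 (adjusted p = 0.053, 0.0801, 0.0597 and 0.066), and Fosl1 was not called without mandible replicate 1 or 2 (adjusted p = 0.0515 and 0.105, with a log2 value of -0.68 without the latter). Mandible replicate 2 had the most G2M cells, 264. Fosb was called without mandible replicate 1 (adjusted p = 0.0336).

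**Figure D5:**
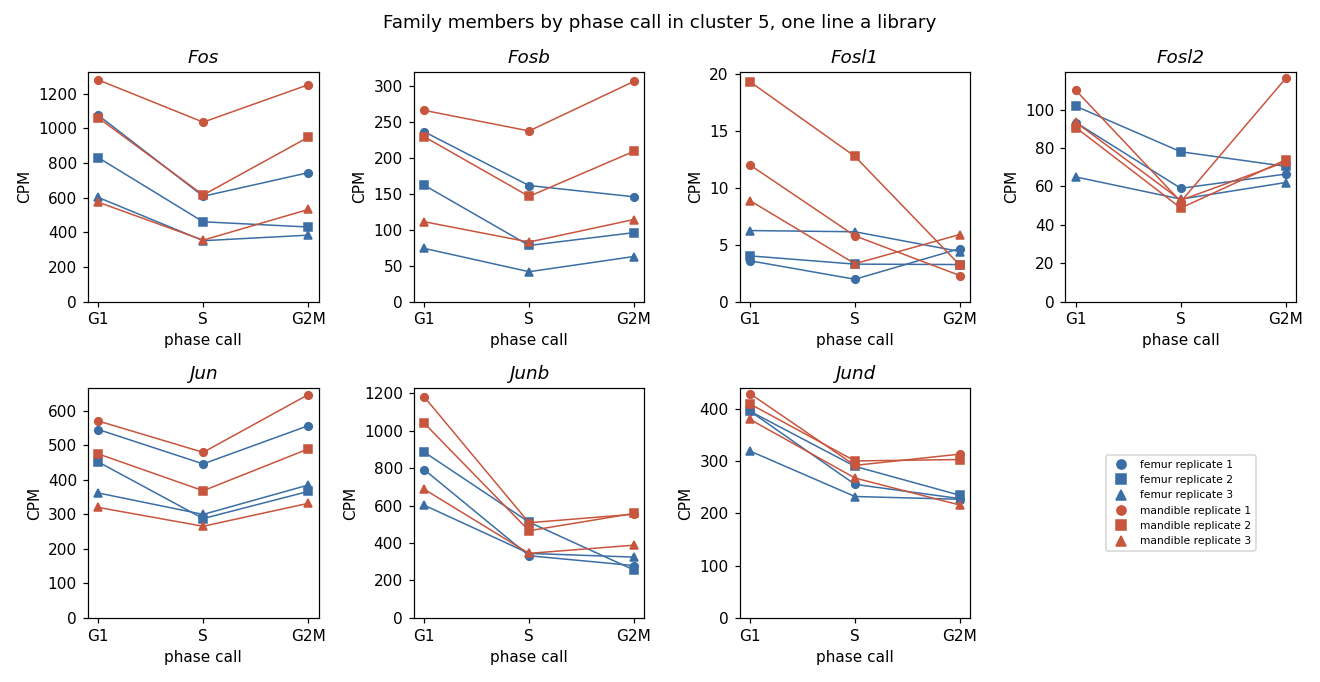
CPM of each gene in cells of cluster 5 called G1, S and G2M, with 1 line per library, coloured by site. Junb goes from 603 to 1182 CPM in G1 to 256 to 559 CPM in G2M in the 6 libraries, while Jun lies between 320.2 and 571 CPM in G1 and between 332 and 647 CPM in G2M.

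Cluster 5 is mixed, and reference labels shift with phase: monocyte-labelled cells made up 52.2% of G1 cells (SD 6.87) and 58.9% of G2M cells (SD 11.7), and macrophage-labelled cells 7.29% (SD 4.09) and 1.66% (SD 1.46). Among monocyte-labelled cells alone, Junb went from 788 to 393 CPM, Jund from 394 to 252 CPM and Fos from 1065 to 884 CPM, each lower in 6 of 6 libraries. Fosl2 did not follow there, at 80.4 and 89.7 CPM with 1 of 6 libraries lower in G2M, nor clearly did Fosl1, at 1.76 and 1.31 CPM with 4 of 6 lower, and Jun was at 539 and 540 CPM. Among neutrophil-labelled cells, in the 4 libraries with at least 20 G2M cells of that label, Junb went from 937 to 476 CPM, Fosl2 from 109 to 65.5 CPM and Fosl1 from 16.1 to 8.28 CPM, each lower in 4 of 4 libraries.

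In the immature neutrophils of cluster 0, 6 members passed as lower in G2M and 1 as higher, where 24.6% of all genes were lower and 21.8% higher. Fosl1 fell most, by 1.63 ± 0.18 on the log2 scale (adjusted p = 6.8e-07), from 21.0 CPM in G1 to 8.58 CPM in G2M and in 6 of 6 libraries. Jund fell by 0.65 ± 0.10 (adjusted p = 3.83e-05) and Fosl2 by 0.58 ± 0.13 (adjusted p = 0.00145), each lower in CPM in 5 of 6 libraries. Fos, Junb and Jun had fitted values of -0.43, -0.42 and -0.23 (adjusted p = 0.0102, 0.031 and 0.0251) but were lower in CPM in 3 of 6 libraries each, and Junb and Jun were not called by DESeq2 (adjusted p = 0.0841 and 0.0741). Jun was also not called without femur replicate 1 or 3 or mandible replicate 3 (adjusted p = 0.281, 0.0617 and 0.085), nor Junb without femur replicate 2 or mandible replicate 1 (adjusted p = 0.0866 and 0.128). Without mandible replicate 1 the Fos value was -0.25 and the Junb value -0.19, and without femur replicate 1 the Jun value was -0.14. Fosb rose by 0.54 ± 0.13 (adjusted p = 0.00206), from 24.1 to 42.3 CPM and in 6 of 6 libraries. Cluster 0 was mostly G1 cells, and the precursors of cluster 4 mostly S and G2M cells. Over all phases, cluster 4 held less Fosl1 (6.97 against 20.5 CPM), Jund (128 against 201) and Fosl2 (30.7 against 76.7). It also held less Fos (157 against 309) and Junb (193 against 457). Fosb (28.1 against 24.8) and Jun (206 against 202) were close. The part of maturation stage in the phase differences of cluster 0 was not tested. In the precursors of cluster 4, 2 libraries, femur replicate 3 and mandible replicate 2, had at least 20 G1 cells, and edgeR called 0 of 7 members there, against 7.82% of all genes. At an unadjusted p under 0.05 Junb (-0.48 ± 0.19), Jund (-0.35 ± 0.17) and Fosl1 (-0.83 ± 0.39) were lower, and DESeq2 called 0, with no adjusted p for Fosb and Fosl1.

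The rest of the pathway was read through 6 lists chosen by function, and the genes named from them here were chosen after their values were seen. None of their genes passed the false discovery rate between the sites in any cluster. Of the MAP kinases and serum response factors that drive transcription of the family, 20 of 20 were tested in cluster 1, where 1 was higher and 0 lower at an unadjusted p under 0.05, and their median log2 fold change was 0.00 beside 0.00 over all genes. That gene was Mapk3, which encodes ERK1, at 121 CPM (SD 14.3) in femoral and 161 CPM (SD 19.2) in mandibular cells (log2 fold change 0.56, adjusted p = 0.130). The bZIP partners and competitors, such as Atf3, Batf and the small Maf proteins, had 2 higher and 2 lower of 19 in cluster 1, with a median of -0.10. Mafg was among the higher ones (0.56, adjusted p = 0.121). Feedback regulators of MAP kinases and early mRNAs had 0 higher and 3 lower of 12 in cluster 1, with a median of -0.17, and Spry2, an inhibitor of receptor tyrosine kinase signalling, held 6.83 and 3.06 CPM (-1.01, adjusted p = 0.123). Other immediate early genes had 3 higher and 0 lower of 19 in cluster 1, with a median of 0.20, Klf2 among them (0.54, adjusted p = 0.157). These counts stand beside 13.6% of all genes tested in cluster 1 with an unadjusted p under 0.05 in either direction.

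In cluster 4 the other immediate early genes had 2 higher and 1 lower of 20, with a median of 0.18, and Egr1 held 54.5 CPM at the femur (SD 13.8) and 94.6 CPM at the mandible (SD 25.6; log2 fold change 0.85, adjusted p = 0.255). In cluster 0 they had 2 higher and 0 lower of 18 with a median of 0.11. Of the bZIP partners there, Atf3, a repressor induced by stress, held 10.5 and 4.43 CPM (-1.22, adjusted p = 0.527). Genes known as AP-1 targets had 2 higher and 0 lower of 12 in cluster 1 with a median of 0.07, Tnf being one (0.87, adjusted p = 0.211). In cluster 2 they had 3 higher and 0 lower of 9 with a median of 0.24. Cluster 3 had 0 higher and 0 lower of 9 with a median of -0.02. In cluster 5 they had 3 higher and 4 lower of 15 with a median of 0.01. There the osteoclast genes Acp5 and Ctsk were on the lower side, with log2 fold changes of -1.55 (adjusted p = 0.529) and -2.91 (adjusted p = 0.606), while 8 of the 15 genes were above 0. Macrophage-labelled cells made up 3.53 to 15.7% of this cluster in the femur libraries and 3.54 to 7.56% in the mandible libraries. Their part in these values was not tested. Heat shock genes, which respond to stress of handling, had 2 higher and 0 lower of 8 in cluster 1 with a median of -0.05, and 0 higher and 2 lower of 10 in cluster 5 with a median of -0.04. The share of all genes tested with an unadjusted p under 0.05 in either direction was 6.81% in cluster 0, 13.6% in cluster 1 and 12.2% in cluster 2. It was 4.38% in cluster 3, 13% in cluster 4 and 7.11% in cluster 5. The median over all genes tested lay between -0.01 and 0.02 in every cluster.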

How the data were processed

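Single-cell RNA-seq of CD11b+ bone marrow cells was available for 3 femur and 3 mandible samples. The authors deposited raw UMI counts per gene and barcode, made with Cell Ranger (7.0.1 in the methods and the submitters' processing notes, 7.1.0 in the matrix header) on mm10, and a cell table with the percent of mitochondrial UMIs, cluster, phase call and ImmGen label of each cell, made in R 4.1.0 with Seurat and SingleR. That table kept cells with 600 to 6000 genes and at most 20% mitochondrial UMIs. A further deposited table with the authors' fold changes and p-values of clusters was not used.

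UMIs were summed per library and cluster, divided by the total and multiplied by 1000000 (CPM). Sites were compared with edgeR 4.0.16 (TMM, filterByExpr, quasi-likelihood test, false discovery rate 0.05) in R 4.3.3, with DESeq2 1.42.0 as alternative. Differences of the site effect used limma 3.58.1 with a prior count of 2. G2M and G1 cells were compared with the library as a block where both phases had at least 20 cells. For shares, cells were thinned to 1000 UMIs, and shallower ones left out. No doublet caller was run; leaving out the 5% of cells with the most UMIs was an alternative. Full statistics are given for pairs without overlap or with an unadjusted p under 0.05, and for the largest remaining change of each gene. The scripts were tested on simulated data. The genes, lists and tests were chosen with earlier results of these data known. The study's Wilcoxon test over cells was not used, because cells are not replicates.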

Additional observations from a re-analysis of the deposited data

How the results depend on the processing

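Of 22 named pairs of a gene and a cluster, 132 values under other settings kept their direction, 29 of them passing the threshold that edgeR's test did not pass. Of 132 values with 1 library left out, 129 kept direction and call. The log2 fold change of Fosl2 in cluster 7 lay between -0.00015 and 0.47 and that of Jun in cluster 8 between -1.44 and 0.048. The value of Jun in G2M over G1 of cluster 5 lay between -0.0041 and 0.094.

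Members called between sites, 0 by edgeR's test, numbered 1, 3, 2, 2, 3 and 1 in clusters 0, 1, 2, 3, 4 and 7 without a filter on low counts. With DESeq2 they numbered 1 in clusters 1 and 2 and over all cells, and among cells of low mitochondrial share 1 in cluster 2. Leaving out 1 library gave 0 to 1 in cluster 7 and 0 elsewhere. The share of all genes called rose to between 0.0345 and 2.64% without a filter and to as much as 2.88% with DESeq2. Among cells of low mitochondrial share it was 0.348% in cluster 2. The cause of these changes was not tested.

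With the replicate number of the titles as a block, 0 members were called in every cluster, with 0 to 0.219% of all genes. Deviations of libraries sharing that number from their site means correlated between -0.40 and 0.61 over the clusters. With 3 libraries per site this range does not establish whether the number pairs the samples. A block on the library number in the 4 libraries that share one called 5, 6, 3, 5, 5, 1 and 1 members in clusters 0, 1, 2, 3, 4, 6 and 7 and 1 over all cells, with 0.0361 to 14.1% of all genes. Deviations for that number correlated between 0.29 and 0.50 in clusters 0 to 3, between 0.0031 and 0.33 in clusters 4 to 7 and at -0.63 and -0.17 in the small cluster 8, and the labels do not say what it marks.

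Pairs whose thinned shares did not overlap numbered 7 as reported, 8 with cells thinned to 2000 UMIs (4 of them among the 7), 14 with cells as counted and 9 to 23 with 1 library left out, where fewer libraries overlap less by construction (20 without femur replicate 2 and 23 without mandible replicate 3). The share of Jund in cluster 6 was 50.7% after thinning against 42.5%. Members lower in G2M in cluster 5 numbered 3 to 5 with 1 library left out. Clusters 6 and 8 had as few as 39 and 11 cells a library, which limits the precision of their values.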

Other observations

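The level of Fos and Junb moved with the depth of a cell in opposite ways along the neutrophil clusters. Cells of each library and cluster were split at the median UMI count. In cluster 4 the deeper cells held more Fos (180 against 116 CPM, mean log2 ratio 0.65 ± 0.14, SD over 6 libraries) and more Junb (225 against 134 CPM, 0.74 ± 0.11), in 6 of 6 libraries each. In cluster 0 the ratios were 0.52 ± 0.19 and 0.47 ± 0.24, again above 0 in 6 of 6 libraries. In the mature neutrophils of cluster 2 the deeper cells held less Fos (1064 against 1647 CPM, -0.63 ± 0.08) and less Junb (1767 against 2884 CPM, -0.70 ± 0.09), and the ratio was below 0 in all 6 libraries in clusters 1, 2 and 3. CPM is a share of the total that also makes the split, so these values are a description.

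Fos and Junb UMIs fell into the same cells more often than the product of their shares in every library of clusters 0 to 5. After thinning to 1000 UMIs, 3.09% of cluster 4 cells held both against a product of 1.89%, a ratio of 1.68 ± 0.30 (SD, n = 6 libraries), and the ratio was 1.49 ± 0.21 in cluster 0, 1.19 ± 0.07 in cluster 5 and 1.02 ± 0.01 in cluster 1, where 69.7% of cells held both. High shares leave the ratio little room above 1, so it cannot be compared between clusters. Fosb and Jun gave 1.51 ± 0.14 in cluster 1 and 1.22 ± 0.07 in cluster 5. The part of doublets in these ratios was not tested.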
